A study of Mus musculus with 6 samples.

Results

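The transporters described here carry bile acids, phospholipid, sterols and organic anions across the membranes of the hepatocyte. They are 10 genes: *Slc10a1*, *Slco1a1*, *Slco1a4*, *Slco1b2* and *Slc22a7* of the blood-facing (basolateral) membrane, and *Abcb11*, *Abcb4*, *Abcc2*, *Abcg5* and *Abcg8* of the bile-facing (canalicular) membrane. The 10 genes were selected on these livers: their reads, summed per gene and scaled to library size, had been compared between genotypes before the group was put together. The genotype differences of the 10 genes are therefore given as a description. Calls that the tests across all genes gave for them are listed later, and nothing is drawn from those calls. They are 10 of 54115 genes, and all 10 were among the 12524 genes with enough reads to enter the comparison across all genes.

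RNA was sequenced from the liver of 3 wild-type (WT) and 3 *Sirt7* knockout (*Sirt7* KO) mice. All were males of 24 months, and food had been withheld for 16 h. SIRT7 is a nuclear deacylase that acts on histones and other proteins, and these mice lack it in the whole body, so a difference in liver need not arise in liver cells. The knockout line had been backcrossed to C57BL/6J, and both genotypes were littermates of heterozygous parents. The study sequenced these livers to follow up the hepatic expression of FGF21, a hormone of the fasted liver.

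Between 9994860 and 13424776 reads were assigned to transcripts in each liver. The knocked-out gene itself had 652, 501 and 639 reads in the WT livers and 312, 394 and 423 in the *Sirt7* KO livers, which is 49.3 ± 5.19 against 37.0 ± 7.34 CPM (reads scaled to library size; SD, n = 3 each). The *Sirt7* KO livers lay below the WT livers in CPM without overlap. In TPM, which also corrects for transcript length, they lay above them without overlap, at 34.4, 28.3 and 27.3 TPM in WT and 34.7, 49.9 and 68.0 TPM in *Sirt7* KO livers. These reads count every annotated *Sirt7* transcript whole, so they do not measure the deleted part by itself. The tissue label was borne out by 6 hepatocyte markers, which summed to 42036 to 46801 CPM in WT and 43542 to 52100 CPM in *Sirt7* KO livers. The genes *Ddx3y*, *Eif2s3y*, *Kdm5d* and *Uty* of the Y chromosome had 44 to 387 reads in every liver, and *Xist* had 0 to 3 reads, so all 6 libraries were male. WT replicate 1 nevertheless stood apart from the other livers in genes that differ between male and female liver, as given with *Slco1a1*.

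The hepatocyte takes bile acids and drugs from sinusoidal blood through sodium-dependent and sodium-independent carriers in its basolateral membrane. It secretes bile across its canalicular membrane with pumps that use ATP. Bile salts are exported by one pump, phosphatidylcholine is turned outward by another, and a heterodimer adds cholesterol, so that the bile salts leave the cell together with the lipids that keep them in mixed micelles. In rodents several of the basolateral carriers are also known to differ between the sexes, under the control of the pulses of growth hormone.

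The start regions of 5 of the genes are shown because these genes lie next to each other or act side by side on 1 membrane. Each is a window of 300 bases, from 250 before to 50 after the transcription start, taken from RefSeq on the build GRCm38.p6 and written 5′ to 3′ along the gene. Capitals mark matches on either strand to any of the searched motifs named after the sequences. *Slco1a1* (chr6:141946913-141947212, minus strand) and *Slco1a4* (chr6:141856171-141856470, minus strand) are neighbouring paralogs, *Abcb11* (chr2:69342567-69342866, minus strand) and *Abcb4* (chr5:8893471-8893770, plus strand) encode the bile salt pump and the phosphatidylcholine translocator, and the window of *Abcg8* (chr17:84682871-84683170, plus strand) also holds the start of *Abcg5*.
Slco1a1: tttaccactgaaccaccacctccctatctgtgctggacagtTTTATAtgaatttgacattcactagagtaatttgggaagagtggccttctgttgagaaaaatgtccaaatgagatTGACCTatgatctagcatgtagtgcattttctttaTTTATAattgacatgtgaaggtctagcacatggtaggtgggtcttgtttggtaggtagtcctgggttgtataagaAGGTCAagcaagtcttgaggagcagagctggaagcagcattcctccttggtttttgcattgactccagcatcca
Slco1a4: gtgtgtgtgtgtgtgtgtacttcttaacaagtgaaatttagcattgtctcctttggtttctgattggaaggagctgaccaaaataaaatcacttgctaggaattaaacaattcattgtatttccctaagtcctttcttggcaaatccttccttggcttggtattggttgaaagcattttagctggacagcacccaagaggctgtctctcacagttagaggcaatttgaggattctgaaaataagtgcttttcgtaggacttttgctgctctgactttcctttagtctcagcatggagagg
Abcb11: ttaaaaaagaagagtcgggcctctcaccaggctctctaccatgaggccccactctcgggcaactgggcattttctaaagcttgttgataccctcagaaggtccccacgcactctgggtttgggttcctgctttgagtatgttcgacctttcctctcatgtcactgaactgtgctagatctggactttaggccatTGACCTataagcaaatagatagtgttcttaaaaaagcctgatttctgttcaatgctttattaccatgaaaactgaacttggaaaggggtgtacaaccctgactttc
Abcb4: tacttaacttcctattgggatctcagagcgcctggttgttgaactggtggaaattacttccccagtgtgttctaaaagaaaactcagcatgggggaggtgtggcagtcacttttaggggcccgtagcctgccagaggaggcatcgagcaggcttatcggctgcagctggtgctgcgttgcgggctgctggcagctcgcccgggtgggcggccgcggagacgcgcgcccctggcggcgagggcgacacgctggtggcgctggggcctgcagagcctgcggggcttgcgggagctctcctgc
Abcg8: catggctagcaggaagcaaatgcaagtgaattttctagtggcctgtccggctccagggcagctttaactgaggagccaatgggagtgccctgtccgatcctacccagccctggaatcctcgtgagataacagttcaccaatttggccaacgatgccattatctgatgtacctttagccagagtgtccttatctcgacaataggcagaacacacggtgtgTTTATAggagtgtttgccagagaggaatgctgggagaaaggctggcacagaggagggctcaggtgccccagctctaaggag

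A window was found for 9 of the 10 transporters, the exception being *Slc22a7*. The nuclear receptor motif AGGTCA lay in a window of 5 of the transporters (*Slc10a1*, *Slco1a1*, *Slco1b2*, *Abcb11* and *Abcc2*) and in 16.3% of the 32851 RefSeq windows. In the *Slco1a1* window it stood at 134 to 129 bases and again at 24 to 19 bases before the start. In the *Abcb11* window it stood at 56 to 51 bases before the start. Pairs of this motif spaced as IR-1, DR-1 or DR-4, the arrangements read by bile acid, lipid and oxysterol receptors with RXR, were in none of the transporters' windows and in 0.00913%, 0.0396% and 0.0152% of all windows. The STAT site TTCNNNGAA was in windows of *Slc10a1* and *Slco1b2* and in 8.3% of all windows. The HNF1 motif GTTAAT was in the *Slco1b2* window and in 7.1% of all windows. The FOXA site TGTTTAC and the E-box CACGTG were in none of the transporters' windows, against 3.65% and 7.15% of all windows. The letters TATAAA were in windows of 5 transporters (*Slc10a1*, *Slco1a1*, *Slco1b2*, *Abcg5* and *Abcg8*), as in 13.6% of all windows. For *Abcg5* and *Abcg8* this is the same site, in the bases that their windows share. Nothing matched in the windows of *Slco1a4* and *Abcb4*, the latter with 64.0% G and C against a median of 52.7%.

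*Slco1b2* (141629518-141686646, plus strand), *Slco1a4* (141805440-141856199, minus strand) and *Slco1a1* (141907282-141946962, minus strand) lie on chromosome 6 within 317444 bases. *Abcg5* (84658234-84683011, minus strand) and *Abcg8* (84676302-84700333, plus strand) lie on chromosome 17. The RefSeq start of *Abcg5* and the nearer RefSeq start of *Abcg8* are 110 bases apart on opposite strands, and their windows share 209 bases. A second RefSeq window of *Abcg8* lies farther away, at 84676052-84676351. *Slc22a7* (46432183-46438457, minus strand) is on chromosome 17 as well. The others are on chromosomes 12 (*Slc10a1*, 80953183-80968705, minus strand), 2 (*Abcb11*, 69238282-69342616, minus strand), 5 (*Abcb4*, 8893717-8959231, plus strand) and 19 (*Abcc2*, 43782192-43840740, plus strand). Gene positions are those of GENCODE M21 on GRCm38.

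Uptake carriers for bile acids were the most abundant of the transporters. In TPM, which allows levels of different genes to be compared, *Slc10a1* led with 329 ± 51.0 TPM and *Slco1b2* followed with 259 ± 57.8 TPM (SD over the 6 livers). *Slc10a1* was above *Slco1b2* in 5 of 6 livers, and their ranges overlapped. Together these genes made up 68.9% to 72.9% of the summed TPM of the 10 transporters in every liver. Every liver had more *Slco1b2* than *Abcb11*, the next gene, and this was the only step in the order at which the ranges did not overlap.

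The pumps of the canalicular membrane came next, with 52.6 ± 16.2 TPM for *Abcb11*, 49.9 ± 15.6 TPM for *Abcb4* and 34.8 ± 7.82 TPM for *Abcg5*. They were followed by *Slco1a4* (25.1 ± 7.74 TPM), *Abcc2* (24.2 ± 5.96 TPM), *Slc22a7* (22.4 ± 21.8 TPM), *Slco1a1* (17.0 ± 12.8 TPM) and *Abcg8* (16.8 ± 4.61 TPM). The order of these 8 genes was not stable, since the range of each overlapped that of the next, and it differed between the genotypes. By mean level *Slc22a7* and *Slco1a1* were the lowest of the 10 in WT livers, at 5.71 ± 2.11 and 6.44 ± 4.26 TPM (SD, n = 3). In *Sirt7* KO livers *Slc22a7* was at 39.1 ± 18.5 TPM, next to *Abcb4* at 36.8 ± 8.03 and *Abcg5* at 33.5 ± 7.06 TPM, and *Slco1a1* was at 27.5 ± 7.70 TPM. *Abcb4* exceeded *Abcb11* in the WT means (63.1 ± 4.91 and 45.6 ± 13.4 TPM), and *Abcb11*, at 59.6 ± 18.2 TPM, exceeded *Abcb4* in the *Sirt7* KO means. The spread over the 6 livers was widest, relative to the mean, for *Slc22a7* and *Slco1a1*. The summed level of the 10 transporters was 732 to 909 TPM in WT and 656 to 960 TPM in *Sirt7* KO livers, so the genotypes overlapped.

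**Figure D1:**
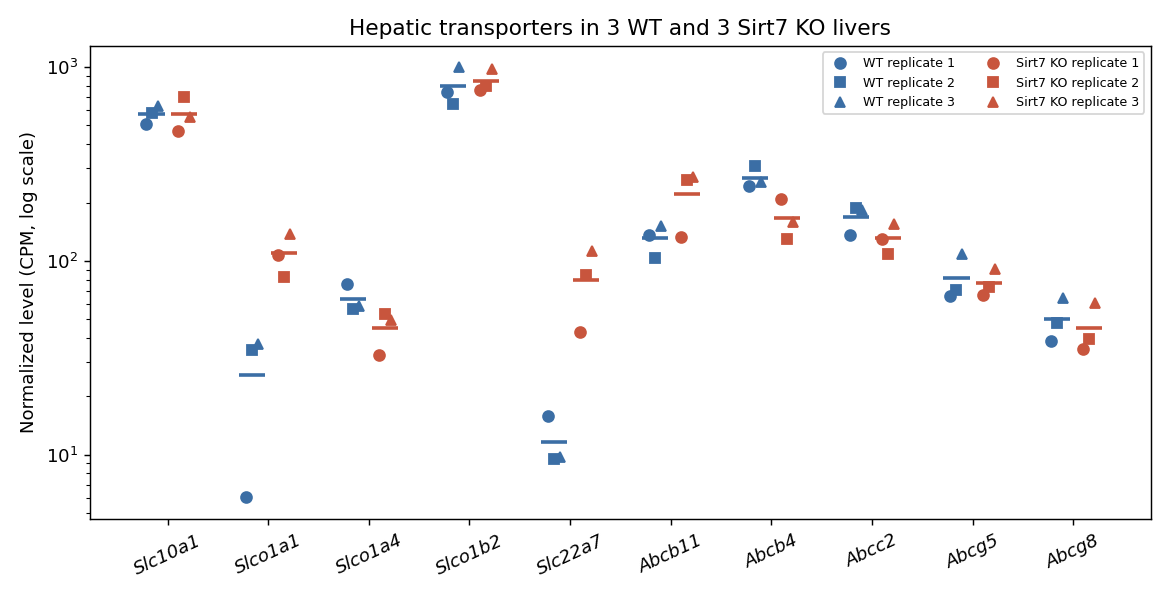
Normalized level of the 10 transporters in every liver (CPM, logarithmic axis), with blue symbols for the 3 WT and red symbols for the 3 *Sirt7* KO livers and a bar at each mean. *Slc22a7* and *Slco1a1* separate by genotype by the widest gap, from 9.53 to 15.7 CPM in WT against 43.1 to 112 CPM in *Sirt7* KO livers for *Slc22a7*.

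Among the basolateral carriers, 2 were higher in every *Sirt7* KO liver than in every WT liver, 1 was lower, and the 2 most abundant overlapped. Levels are given from here on in CPM after TMM scaling, and fold changes are those of edgeR on the log2 scale, *Sirt7* KO relative to WT, with their standard error. In whole liver a smaller number of hepatocytes and less RNA per hepatocyte cannot be told apart.

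*Slc22a7* encodes OAT2, a carrier of organic anions. Its level was 15.7, 9.53 and 9.76 CPM in the WT livers and 43.1, 84.2 and 112 CPM in the *Sirt7* KO livers. The lowest *Sirt7* KO liver was 2.74 times the highest WT liver, and the *Sirt7* KO livers differed among themselves more than the WT livers did. The means were 11.7 ± 3.53 and 79.8 ± 34.7 CPM (SD, n = 3 each), a log2 fold change of 2.77 ± 0.35 (SE), or 6.83-fold. It ranged from 2.45 to 3.07 when each liver in turn was left out. This was the largest difference among the transporters, and since the gene was chosen with it in view, no test is used to support it. The gene shared no stretch of 31 bases with another gene.

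*Slco1a1* encodes OATP1A1, a sodium-independent carrier of bile acids and steroid conjugates that is known to predominate in male mouse liver. Its reads came to 6.01, 34.5 and 37.1 CPM in the WT livers and to 108, 82.7 and 138 CPM in the *Sirt7* KO livers. The genotypes did not overlap, and WT replicate 1 was far below every other liver. The means were 25.9 ± 17.3 and 109 ± 27.8 CPM, with a log2 fold change of 2.08 ± 0.54, or 4.23-fold. Without WT replicate 1 the log2 fold change was 1.61, and the other livers left out in turn gave 1.88 to 2.44.

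*Slco1a4* encodes OATP1A4, the neighbouring paralog, which is known to predominate in female mouse liver. It stood at 76.4, 56.7 and 58.7 CPM in the WT livers and at 32.8, 53.4 and 49.5 CPM in the *Sirt7* KO livers. No *Sirt7* KO liver reached the WT range, but the gap was narrow, the lowest WT liver being 1.06 times the highest *Sirt7* KO liver. The means were 63.9 ± 10.8 and 45.2 ± 11.0 CPM, with a log2 fold change of -0.50 ± 0.21. It was -0.31 without *Sirt7* KO replicate 1, the lowest liver, and -0.36 without WT replicate 1, the highest.

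Set against each other, the paralogs differed in rank between the genotypes. The ratio of *Slco1a1* to *Slco1a4*, taken from TPM, was 0.0429, 0.316 and 0.364 in the WT livers and 2.06, 0.883 and 1.42 in the *Sirt7* KO livers. By this measure *Slco1a4* was the more abundant in each WT liver, and *Slco1a1* in 2 of the 3 *Sirt7* KO livers. The TPM of *Slco1a4* includes *Slco1a4-202*, a transcript of 622 bases that held 7.72 TPM in *Sirt7* KO replicate 2. In reads, not corrected for length, *Slco1a1* exceeded *Slco1a4* in every *Sirt7* KO liver, with 780 against 504 in replicate 2. The paralogs are alike in sequence: 2.53% of all stretches of 31 bases in *Slco1a1* transcripts also occurred in *Slco1a4*. The share that occurred in any other gene was 4.02%. For *Slco1a4* the share was 5.03%, mostly with *Slco1a5*, to which no read was assigned in any liver.

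The level of *Slco1a1* moved with other genes that are known to be higher in male than in female mouse liver. A list of 16 such genes was summarized in each liver as the mean log2 CPM relative to the mean of the 6 livers. It was -2.10, -0.30 and -0.14 in the WT livers and 0.87, 0.59 and 1.08 in the *Sirt7* KO livers. WT replicate 1 was again the lowest, and the order of all 6 livers was the same as for *Slco1a1*. The summed level of the list was 3787 to 28748 CPM in WT and 37147 to 49321 CPM in *Sirt7* KO livers, and without *Mup7*, its most abundant gene, the sums of the genotypes overlapped (3326 to 14379 and 13982 to 22253 CPM). None of the genes was at 0 in all livers.

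For 16 genes known to be higher in female liver the same measure was 1.23, 0.14 and -0.03 in the WT livers and -0.51, -0.25 and -0.58 in the *Sirt7* KO livers, with summed levels of 217 to 297 CPM and 23.4 to 50.5 CPM. The gap between the sums rested on *Acot3*. Without it they were 242, 38.9 and 24.9 CPM in the WT livers and 12.3, 37.9 and 17.9 CPM in the *Sirt7* KO livers, which overlap. WT replicate 1 was the highest, as it was for *Slco1a4*. *Cyp2b13* and *Cyp2a4* had 177 and 187 reads in WT replicate 1 and 0 to 8 reads in the other livers. What part the state of these genes, or WT replicate 1, had in the values of *Slco1a1* and *Slco1a4* was not tested.

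**Figure D2:**
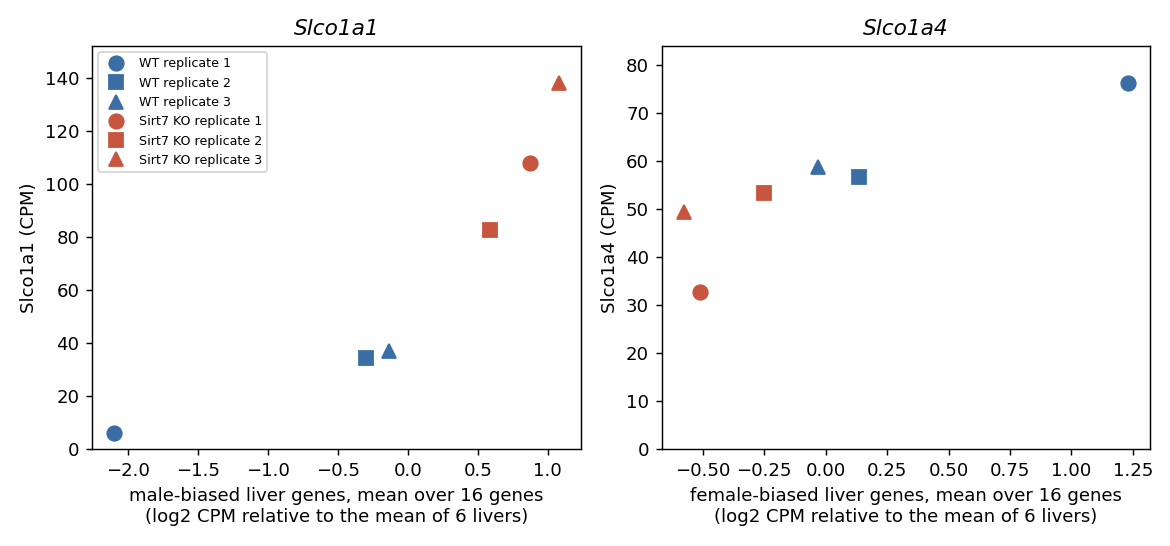
Level of *Slco1a1* against male-biased liver genes (left) and of *Slco1a4* against female-biased liver genes (right), 1 symbol per liver, with the transporter in CPM on the vertical axis and the mean over 16 genes, in log2 CPM relative to the mean of the 6 livers, on the horizontal axis. WT replicate 1 lies at the lower left for *Slco1a1* (6.01 CPM, list mean -2.10) and at the upper right for *Slco1a4* (76.4 CPM, list mean 1.23).

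*Slc10a1* encodes NTCP, the sodium-dependent carrier that takes up conjugated bile acids. Levels were 509, 579.6 and 629 CPM in the WT livers and 466, 703 and 552 CPM in the *Sirt7* KO livers. The WT range lay within the *Sirt7* KO range. The means were 573 ± 60.2 and 574 ± 120 CPM, and the log2 fold change of 0.003 ± 0.19 changed sign in 7 of 16 alternative analyses, between -0.17 and 0.13.

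*Slco1b2* encodes OATP1B2, a sodium-independent carrier of bile acids, bilirubin and drugs. It reached 742, 649 and 997 CPM in the WT livers and 759.9, 797 and 977 CPM in the *Sirt7* KO livers. All *Sirt7* KO livers lay inside the WT range. The log2 fold change was 0.09 ± 0.20 and changed sign in 3 of 16 alternatives, which included leaving out WT replicate 2 (-0.04) and *Sirt7* KO replicate 3 (-0.03).

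The canalicular transporters differed in direction from one another. *Abcb4* was lower in every *Sirt7* KO liver, the mean of *Abcb11* was higher, and *Abcc2*, *Abcg5* and *Abcg8* overlapped between the genotypes.

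*Abcb11* encodes BSEP, the bile salt export pump. It was measured at 136, 104 and 152 CPM in the WT livers and at 133, 263 and 271 CPM in the *Sirt7* KO livers. *Sirt7* KO replicate 1 lay among the WT livers and the other 2 *Sirt7* KO livers lay above them. The means were 131 ± 24.6 and 222 ± 77.3 CPM, with a log2 fold change of 0.77 ± 0.27, or 1.70-fold. It was 1.03 without *Sirt7* KO replicate 1. It was 0.44 when edgeR was given the average transcript length of the gene in each liver, and 0.38 for TPM. Both values take in the short *Abcb11-203*, which held much of the TPM of *Abcb11* in most livers.

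*Abcb4* encodes MDR2, which moves phosphatidylcholine to the outer leaflet of the canalicular membrane. It was measured at 244, 309 and 255 CPM in the WT livers and at 209, 129.8 and 158 CPM in the *Sirt7* KO livers. The lowest WT liver was 1.17 times the highest *Sirt7* KO liver, which was replicate 1. The means were 269 ± 34.8 and 166 ± 39.9 CPM, with a log2 fold change of -0.70 ± 0.20, or 1.63-fold lower in *Sirt7* KO. The range with 1 liver left out was -0.90 to -0.55. Of all stretches of 31 bases in *Abcb4* transcripts 4.76% also occurred in another gene, and 2.35% of all stretches occurred in *Abcb1a*.

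The ratio of *Abcb11* to *Abcb4* in TPM was 0.892, 0.461 and 0.838 in the WT livers and 0.930, 2.65 and 1.64 in the *Sirt7* KO livers. It counts *Abcb11-203* as part of *Abcb11*. *Abcb4* exceeded *Abcb11* in every WT liver and in *Sirt7* KO replicate 1, and *Abcb11* exceeded *Abcb4* in the other 2 *Sirt7* KO livers. *Sirt7* KO replicate 1 was the *Sirt7* KO liver nearest to WT for *Slc22a7*, *Abcb11* and *Abcb4*.

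*Abcc2* encodes MRP2, which exports bilirubin glucuronides and glutathione conjugates. It was measured at 136, 188 and 183 CPM in the WT livers and at 129, 109 and 156 CPM in the *Sirt7* KO livers, and the highest *Sirt7* KO liver lay above the lowest WT liver. The means were 169 ± 28.5 and 131 ± 23.5 CPM, with a log2 fold change of -0.37 ± 0.19. In TPM the genotypes did not overlap, at 29.0, 28.0 and 30.9 in the WT livers and 21.6, 16.1 and 19.6 in the *Sirt7* KO livers. That gap depended on *Abcc2-202*, a transcript of 1 exon, at 10.4, 7.90 and 9.21 TPM in WT and 8.25, 4.35 and 0 TPM in *Sirt7* KO livers. *Abcc2-201*, with 32 exons, overlapped in TPM, at 13.3, 17.4 and 17.3 in WT and 11.0, 10.6 and 16.6 in *Sirt7* KO livers. With CPM from total counts the genotypes did not overlap for *Abcc2* either. The overlap for *Abcc2* therefore rested on the unit, the scaling and, in TPM, the transcripts counted.

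*Abcg5* and *Abcg8* encode the partners of the heterodimer that exports cholesterol and plant sterols. *Abcg5* was measured at 66.1, 71.0 and 109 CPM in the WT livers and at 66.3, 73.2 and 90.5 CPM in the *Sirt7* KO livers, with a log2 fold change of -0.10 ± 0.22. *Abcg8* was measured at 38.4, 47.9 and 64.0 CPM in the WT livers and at 34.9, 39.7 and 60.5 CPM in the *Sirt7* KO livers, with a log2 fold change of -0.15 ± 0.25. The genotypes overlapped over most of their ranges for both partners. Without WT replicate 3, the liver with the highest values of both, the log2 fold changes became 0.16 and 0.07. The ratio of *Abcg5* to *Abcg8* in TPM stayed between 1.80 and 2.36 in all 6 livers. The genes overlap on opposite strands and share 1.94% and 1.41% of their stretches of 31 bases, and the method of library preparation is not stated to keep the strand.

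**Figure D3:**
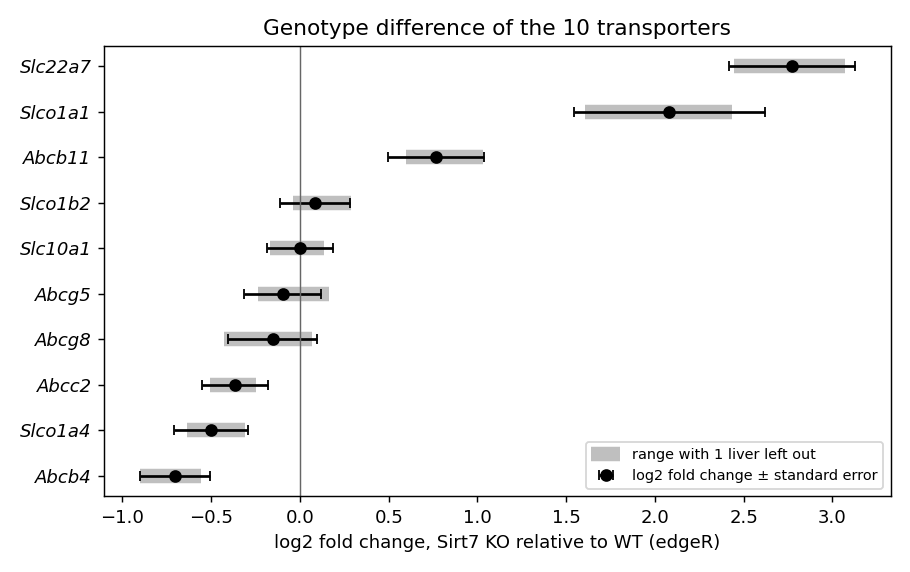
Log2 fold change of each transporter in *Sirt7* KO relative to WT livers (points, with bars of 1 standard error from edgeR) and the range of the estimate when each of the 6 livers is left out in turn (grey). *Slc22a7* (2.77) and *Slco1a1* (2.08) lie far to the right, *Abcb4* (-0.70) lies farthest to the left, and the ranges of *Slc10a1*, *Slco1b2*, *Abcg5* and *Abcg8* span 0.

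Across all genes, edgeR's quasi-likelihood test with Benjamini-Hochberg adjustment called 1 gene of 12524 (0.00798%) at an adjusted p under 0.05 and a fold change over 1.5, and that gene was none of the transporters. At an unadjusted p under 0.05 it called 5 of the 10 transporters, 3 higher and 2 lower, against 11.3% of all tested genes. DESeq2 with transcript length offsets called 1 transporter, *Slc22a7*, against 1.87% of the genes it tested. Without those offsets it called 2, *Slc22a7* and *Abcb4*, against 1.77%. Without *Sirt7* KO replicate 1, edgeR called 3 transporters (*Slc22a7*, *Abcb11* and *Abcb4*) against 1.95% of all genes, and with no filter on low counts it called 4 (these and *Slco1a1*) against 2.27%. The genotypes did not overlap in CPM for 4 of the 10 transporters and for 16.8% of all tested genes. In 2 of them (*Slco1a1* and *Slc22a7*) *Sirt7* KO was above WT, as in 8.74% of all genes, and in 2 (*Slco1a4* and *Abcb4*) it was below, as in 8.09%. These counts use the values that selected the genes, and nothing is drawn from them. The median log2 fold change of the 10 transporters was -0.05, beside -0.0061 for all tested genes.

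The way the transporters varied together over the 6 livers was described by Pearson's r of log2 CPM (n = 6, genotypes pooled, with library and depth shared by all genes of a liver). *Abcg5* and *Abcg8* were the closest pair (r = 0.920), and *Abcg8* ranked 28 among the 12523 other genes by likeness to *Abcg5*. *Slco1b2* was closest to *Abcg5* (0.862), *Slc22a7* and *Abcb11* were closest to each other (0.848), and *Abcc2* was closest to *Abcb4* (0.746). Many other genes were closer: *Abcg5* ranked 99 for *Slco1b2*, *Abcb11* 478 for *Slc22a7* and *Abcb4* 477 for *Abcc2*. The most opposed pairs were *Slc22a7* and *Abcb4* (-0.929), *Abcb11* and *Abcb4* (-0.927), and *Slco1a1* and *Slco1a4* (-0.799). *Slc10a1* had no close partner among the transporters, its highest r being 0.454, with *Abcb11*, and the same held for *Slco1a4*, at 0.346 with *Slc10a1*. *Slco1a1* was nearest to *Slc22a7* (0.690), which ranked 1351 for it among all other genes. With the genotypes pooled, these values of r include the genotype differences that were known when the genes were selected. Among all tested genes *Sirt4* (0.995), *Myh9* (0.995) and *Ints7* (0.992) had the pattern most like that of *Slc22a7*.

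The division of each gene's reads among its annotated transcripts was not used to select the genes and was tested. For the transcript with the highest mean share in each gene, the share was compared between genotypes by a two-sided exact permutation test, in which 3 livers against 3 cannot give a p below 0.1. *Abcb11-202*, with 28 exons, received 74.5%, 81.4% and 76.2% of *Abcb11* reads in the WT livers and 85.5%, 90.5% and 90.0% in the *Sirt7* KO livers. The genotypes did not overlap (77.3 ± 3.59% against 88.7 ± 2.76%, exact permutation p = 0.1, adjusted over the 10 genes 0.625). By share of TPM in place of reads they did overlap. The short *Abcb11-203* weighs more in TPM than in reads. For the other 9 transporters the genotypes overlapped, with exact permutation p between 0.2 and 1 and adjusted values between 0.625 and 1. A p at or above the smallest possible value does not show that the shares were alike.

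**Figure D4:**
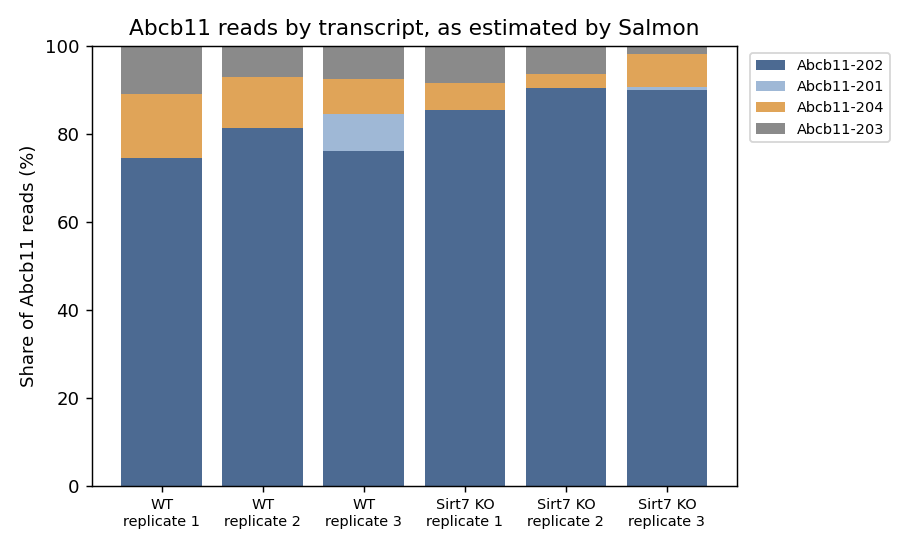
Share of *Abcb11* reads given to each of the 4 annotated transcripts in each liver (percent, stacked to 100). *Abcb11-202* takes 74.5% to 81.4% in the 3 WT livers and 85.5% to 90.5% in the 3 *Sirt7* KO livers.

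The shares of several other transcripts differed widely between livers of 1 genotype. *Slco1b2-204* received 11.3%, 22.1% and 15.5% of *Slco1b2* reads in the WT livers and 4.76%, 30.1% and 37.3% in the *Sirt7* KO livers. *Slco1a1-201* received 29.7% in WT replicate 1 against 60.6% to 84.7% in the other 5 livers. A second transcript of *Slc22a7*, *Slc22a7-203*, received reads in *Sirt7* KO replicates 2 and 3 only, 82.8 and 92.3 of them. These shares are estimates from single-end reads of transcripts that have most exons in common.

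Genes that work with the transporters were read from lists of related genes, each tested in the same fit over all genes. At an adjusted p under 0.05 and a fold change over 1.5, edgeR called 0 genes in every list, so no gene in the lists passed the test, and the directions that follow are estimates. The share of all tested genes at an unadjusted p under 0.05 was 6.54% higher and 4.78% lower in *Sirt7* KO.

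Of 28 other transporters of hepatocytes and neighbouring cells 24 were tested, with a median log2 fold change of 0.17. At an unadjusted p under 0.05, 4 were higher and 1 lower, and DESeq2 called 1 with and 2 without length offsets. The 3 with the largest estimates among these were *Slc22a28*, another organic anion transporter family member, at 2.17 ± 0.45 (edgeR adjusted p = 0.15), *Slco2b1*, a basolateral uptake carrier, at 0.76 ± 0.28 (0.35), and *Slc10a2*, the ileal bile acid carrier also found in bile duct cells, at 0.66 ± 0.28 (0.42). *Slc22a28* was measured at 1.35, 0.907 and 3.40 CPM in the WT livers and at 7.60, 10.2 and 8.19 CPM in the *Sirt7* KO livers, without overlap. It had 16, 10 and 46 reads in the WT livers, close to the limit of the filter on low counts.

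Of 23 receptors and transcription factors that act on bile acid and hepatic genes 22 were tested, with a median log2 fold change of -0.07. At an unadjusted p under 0.05, 1 was higher and 6 were lower, and DESeq2 called 1 with and 1 without length offsets. *Nr1i3*, the xenobiotic receptor CAR, had a log2 fold change of -0.96 ± 0.19 (edgeR adjusted p = 0.14), from 452, 630.0 and 713 CPM in WT to 310.4, 288 and 326 CPM in *Sirt7* KO livers, without overlap. *Nr5a2*, the receptor LRH-1 that acts on bile acid synthesis genes, was at -0.78 ± 0.24 (adjusted p = 0.26), and *Cebpb*, a factor of the acute-phase and gluconeogenic response, was at -1.60 ± 0.59 (0.36). The genotypes of *Cebpb* overlapped, and its estimate was -2.66 without *Sirt7* KO replicate 1, with an edgeR adjusted p of 0.030.

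All 17 genes of bile acid synthesis and conjugation were tested, with a median log2 fold change of 0.32. At an unadjusted p under 0.05, 4 were higher and 2 lower, and DESeq2 called 3 with and 3 without length offsets. *Cyp7b1*, the oxysterol 7-alpha-hydroxylase of the acidic pathway, had a log2 fold change of 1.18 ± 0.20 (edgeR adjusted p = 0.10), from 90.9, 102 and 122 CPM in WT to 205, 206 and 304 CPM in *Sirt7* KO livers. *Cyp2c70*, which makes the muricholic acids of rodents, was at 1.45 ± 0.36 (0.19), and *Cyp39a1*, the 24-hydroxycholesterol 7-alpha-hydroxylase, at -2.04 ± 0.49 (0.17). These 3 genes did not overlap between the genotypes.

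All 22 scaffold, traffic and junction genes of the hepatocyte membranes were tested, with a median log2 fold change of 0.07. At an unadjusted p under 0.05, 4 were higher and 1 lower, and DESeq2 called 1 with and 1 without length offsets. The largest estimates among these were those of *Rab11fip5*, an adaptor of recycling endosomes, at 2.25 ± 0.59 (edgeR adjusted p = 0.21), and of the tight junction genes *Cldn1* at 1.32 ± 0.21 (0.084) and *Cldn2* at 0.57 ± 0.15 (0.21). *Rab11fip5* had 3, 8 and 10 reads in the WT livers and 28, 14 and 44 in the *Sirt7* KO livers, so it passed the filter on low counts only through the *Sirt7* KO group. *Cldn1* was measured at 23.0, 13.2 and 19.6 CPM in the WT livers and at 52.0, 46.4 and 41.5 CPM in the *Sirt7* KO livers.

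All 16 male-biased genes were tested, with a median log2 fold change of 1.27, and 11 of 16 were higher and 0 lower at an unadjusted p under 0.05. The genotypes did not overlap for 11, all higher in *Sirt7* KO, and DESeq2 called 8 with and 6 without length offsets. *Hsd3b5*, a steroid-metabolizing enzyme of male liver, was at 4.41 ± 0.75 (edgeR adjusted p = 0.10), *Selenbp2* at 3.32 ± 1.22 (0.35) and the major urinary protein gene *Mup21* at 2.27 ± 0.54 (0.17). In WT replicate 1 *Hsd3b5* had 5 reads and *Selenbp2* had 4. Both therefore passed the filter on low counts only with the *Sirt7* KO livers, and *Hsd3b5* is among the 11 without overlap. With 8.74% of all tested genes higher without overlap in all 6 livers and 13.1% without WT replicate 1, the genotypes of 11 did not overlap in either case, and the median without that liver was 0.95. *Cyp7b1* is a member of this list as well.

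Of 16 female-biased genes only 5 had enough reads to be tested, with a median of -1.10, and 3 were lower and 0 higher at an unadjusted p under 0.05, while DESeq2 called 1 with and 1 without length offsets. *Cyp2b9* was at -3.85 ± 1.26 (edgeR adjusted p = 0.29), *Acot3* at -2.98 ± 0.69 (0.17) and *Fmo2* at -1.10 ± 0.29 (0.21). Without WT replicate 1 the median was -0.81. *Cyp2b9* rested on that liver: it was measured at 154, 12.2 and 4.07 CPM in the WT livers and at 1.28, 8.05 and 2.60 CPM in the *Sirt7* KO livers, and without WT replicate 1 it was at -1.05. Without *Sirt7* KO replicate 1, *Cyp7b1*, *Cldn1*, *Hsd3b5* and *Acot3* had an edgeR adjusted p of 0.025, 0.036, 0.020 and 0.024, as the only named list genes besides *Cebpb* under 0.05.

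**Figure D5:**
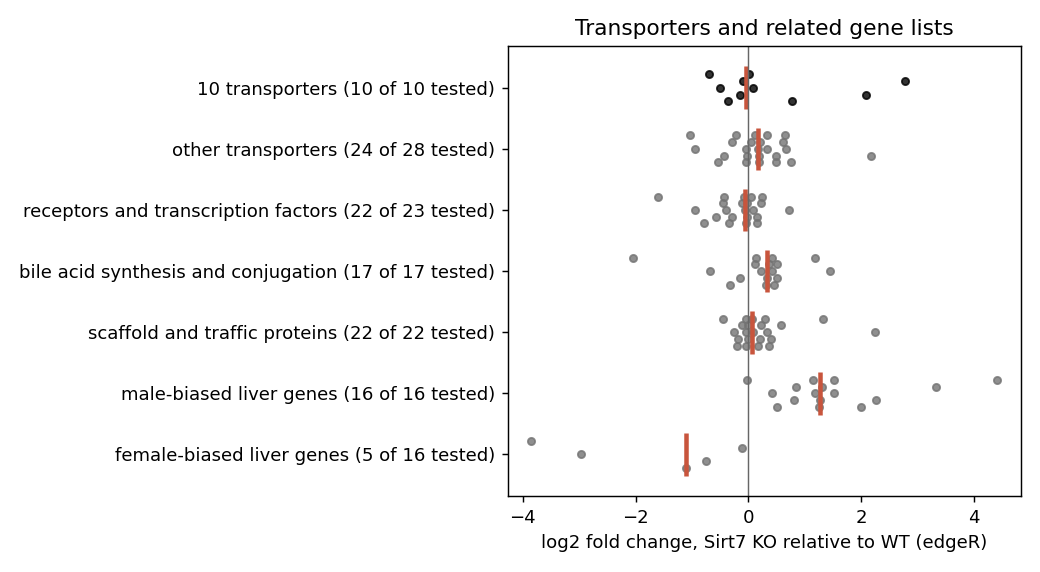
Log2 fold change of each tested gene, *Sirt7* KO relative to WT, for the 10 transporters and 6 lists of related genes, with a red bar at each median and a thin line at the median of all tested genes. The medians are -0.05 for the transporters, 1.27 for male-biased genes and -1.10 for the 5 tested female-biased genes.

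Markers of other cells in the liver were read from 6 genes for each cell type, all of which were found and none of which was at 0 in all livers. The summed levels overlapped between the genotypes for cholangiocytes (47.3 to 72.7 CPM in WT, 53.4 to 71.0 in *Sirt7* KO), Kupffer cells (38.7 to 131 and 40.3 to 111), sinusoidal endothelial cells (67.4 to 88.2 and 72.1 to 103), stellate cells (165 to 208 and 135 to 212) and lymphocytes (16.4 to 18.8 and 12.5 to 21.3). Erythroid markers summed to 221 to 290.3 CPM in WT and 313 to 584 CPM in *Sirt7* KO livers, without overlap. As a mean of log2 CPM relative to the mean of the 6 livers they overlapped, at 0.04, -0.30 and -0.37 in WT and 0.52, -0.41 and 0.51 in *Sirt7* KO livers. Their part in the differences of the transporters was not tested.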

How the data were processed

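Livers of 3 WT and 3 *Sirt7* KO mice were analyzed, grouped by the sample labels, which number 3 biological replicates of each genotype. The method used by the authors made full-length cDNA with SMART-seq HT, libraries with Nextera XT and 75-base single-end reads. The authors trimmed reads with Trim Galore 0.6.5 and quantified them with Salmon 1.2.1 on the GRCm38 transcriptome. The annotation release is not given in the sources used here. They deposited estimated counts of reads per transcript, not normalized, and TPM, which the authors' Salmon run scaled to effective length and library.

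Of 140992 transcripts, 139172 matched GENCODE M21 in name and version and 619 in name alone. The 1201 without a gene held 0.303% to 0.492% of reads and were left out. Estimated counts were summed per gene and rounded. Livers of 1 genotype differed by more than sampling noise (chi-square of at least 16.9 per gene), and the biological coefficient of variation was 26.4%.

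The comparison used the quasi-likelihood test of edgeR 4.0.16 (R 4.3.3) with TMM scaling, filterByExpr (minimum count 10) and Benjamini-Hochberg adjustment. DESeq2 1.42.0, other scalings, filters and length offsets, a replicate block and leaving out each liver were alternatives. Scripts were tested on simulated data. List means used log2(CPM + 0.5), and shared stretches of 31 bases were counted with Python 3.11.15 on both strands of the transcripts. Depth covers counting error only, since no molecular identifiers are named.

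The transporters and the lists were chosen with earlier results of these data known. Named genes are the 10 transporters, *Sirt7*, the 3 largest log2 fold changes at an unadjusted p under 0.05 in each list, the 3 genes most correlated with the transporter of largest change, and each transporter's closest other transporter. *Cyp2b13*, *Cyp2a4*, *Mup7*, *Xist* and the Y-linked genes were named after their values were seen.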

Additional observations from a re-analysis of the deposited data

How the results depend on the processing

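The log2 fold changes of the 10 transporters moved by less than the SD within genotypes in 160 of 160 alternative values. Leaving out 1 of 3 livers can hardly move a mean by that much, so the count shows little for those alternatives. Over the alternatives *Abcb11* ranged from 0.38 to 1.03 and *Slco1a1* from 1.61 to 2.44. The median over the 10 ranged from -0.16 to 0.12 when a liver was left out. The sign of *Slc10a1* changed in 7 of 16 alternatives, of *Slco1b2* in 3, of *Abcg8* in 2 and of *Abcg5* in 1, and of the other 6 in none. The number of transporters whose genotypes did not overlap was 4, and 5 by TPM or with total counts, and 4 to 5 with a liver left out. Leaving out a liver makes separation easier for any gene. Without WT replicate 1, 2 transporters were higher and 3 lower without overlap, beside 13.1% and 12.5% of all tested genes. With all 6 livers these shares of all tested genes were 8.74% and 8.09%. The shares under the other alternatives are not given here, and nothing is drawn from these counts. By total counts the median of all genes shifted to -0.11, and the 10 transporters shifted with it to -0.15.

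The number of genes called across all genes was 1 with edgeR and 2 with total counts or with length offsets, 633 with no filter, 256 with DESeq2 without and 242 with length offsets, and 925 by unadjusted p and fold change. With a liver left out it was 0 to 252, reaching 252 without *Sirt7* KO replicate 1 and 2 without WT replicate 1. List genes called numbered 0, then 27 with no filter, 13 with DESeq2 without and 14 with length offsets, and 0 to 8 with a liver left out, 8 without *Sirt7* KO replicate 1. The cause was not tested. Of the 18 list genes named, 39 values gained a call under an alternative, 230 kept their side and none reversed. The main transcript shares of 1 gene did not overlap, of 0 genes by share of TPM, and of 1 to 6 with a liver left out (6 without *Sirt7* KO replicate 1, 4 without WT replicate 3). With fewer livers such shares separate more easily by chance. No such count over all genes is given here, so nothing is drawn from these counts.

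With the replicate number as a block, 41 genes were called (31 higher, 10 lower), 4 of them in the lists. The labels give the same numbers to different mice, and the deviations of same-numbered livers correlated at 0.065, 0.080 and -0.044. The labels do not say whether same-numbered livers shared anything besides the number, and this was not tested. WT replicates 1 and 2 correlated best with their own number and WT replicate 3 did not. With the block *Slco1a1* was at 2.35 and *Slc22a7* at 2.71. The counts of male-biased and female-biased genes without WT replicate 1, chosen after seeing the data, were 11 and 2, as with all 6 livers, and the sums without *Acot3* or *Mup7* were chosen after seeing the data too. Depth left 11 of the 16 female-biased genes untested.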

Other observations

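*Sirt4*, *Myh9* and *Ints7*, whose pattern over the 6 livers was nearest to that of *Slc22a7*, differed far less in size. *Sirt4*, a mitochondrial sirtuin, was measured at 9.82, 8.89 and 9.39 CPM in the WT livers and at 12.0, 14.0 and 15.1 CPM in the *Sirt7* KO livers. *Myh9*, the heavy chain of nonmuscle myosin, was at 20.5, 19.0 and 19.0 CPM and at 24.4, 25.5 and 27.3 CPM. *Ints7*, a subunit of the Integrator complex, was at 13.3, 12.5 and 12.4 CPM and at 15.5, 16.5 and 16.6 CPM. These are the closest of 12523 genes over 6 values, so that high r is a result of the choice.

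*Abcc2-202*, the transcript of *Abcc2* with 1 exon, received 229.9, 183 and 253 reads in the WT livers and 195, 83.3 and 0 reads in the *Sirt7* KO livers. *Gm13613*, which overlaps *Abcb11* and shares 2.07% of that gene's stretches of 31 bases, had 5 to 13 reads in each liver.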
